A study of Triticum aestivum with 4 samples.

Results

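The microtubule and actin probe sets on the wheat array comprised 10 of the 61290 probe sets in the deposited table. A probe set is a group of short oligonucleotides that together report the signal of a transcript, and its name carries the number of a wheat sequence cluster. The 10 are every probe set of 5 such clusters. The first has 3 probe sets, here called by their name endings MAP70 _s_at, MAP70 _at and MAP70 _a_at (Ta.9080.2.S1_a_at), because its rice match is described as a putative ATMAP70 protein. The formin-like probe set, alone in its cluster, has a rice match described as a formin-like protein precursor, and the actin-binding probe set, also alone, an Arabidopsis match described as actin binding. Ta.1544.1.S1_at and the 4 probe sets of the cluster of Ta.214.1.S1_at carry the beta-tubulin gene synonyms tubb2 and Tubb5. The descriptions of the first 3 clusters are of rice or Arabidopsis genes and were not checked against a wheat sequence.

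Of the 10, MAP70 _s_at and the formin-like and actin-binding probe sets were selected on the difference in signal between UD-2 and WT on these same arrays, as members of the study's lists of changed transcripts. Their differences between the lines are therefore given as a description with no test. The other 7 came in with their cluster or by their tubulin name, but the clusters and the wider lists were chosen with earlier results of these data known.

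Microtubules are hollow polymers of alpha- and beta-tubulin, and in plant cells those under the plasma membrane guide the laying down of cellulose in the wall. Proteins of the MAP70 family, known from Arabidopsis, bind along microtubules and take part in the patterning of secondary walls in xylem vessels. Actin filaments carry organelles and vesicles through the cell, formins start and elongate these filaments, and profilin binds actin monomers and feeds them to formins. In an expanding or dividing leaf cell both systems are in heavy use, while the flag leaf at anthesis has finished most of its expansion.

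RNA was taken from flag leaves at anthesis of the line UD-2 and of CB037, the spring wheat genotype it was made from, as wild type (WT). UD-2 is a T2 progeny of 1 CB037 transformation event, pPTN1034 NN569-3-5-1, which carries a synthetic maize Dof1 coding sequence (ZmDof1) behind the constitutive UBI4 promoter of sugarcane together with an nptII selection cassette, and the wild type carries neither. Plants of both lines stood side by side in a greenhouse with a 10/14 h photoperiod, at 29°C by day and 24°C by night, with normal water and fertilizer. There were 2 arrays for UD-2 and 2 for WT, each hybridised with RNA pooled from 3 plants that no other pool shared. Since only 1 event was measured, the effect of ZmDof1 and that of the insertion or of tissue culture cannot be told apart.

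The values are log2 signals after robust multiarray average (RMA) normalization, so that a difference of 1 is a doubling. Over all probe sets, which do not count as replicates, the signals correlated at a Pearson's r of 0.994 within UD-2, 0.994 within WT, and 0.984 to 0.991 for a UD-2 with a WT array. The background level of an array was set at the 95th percentile of its 42 Bacillus control probe sets, which report bacterial transcripts that leaves lack, and was 3.93 and 3.99 on the UD-2 arrays and 4.17 and 4.15 on the WT arrays. The leaf label was checked on named genes. Of 34 probe sets for Rubisco and photosystem proteins, 18 were over background on all 4 arrays and 14 under it. As lower in UD-2, 3 passed the test, against 0.281% of all probe sets tested. All 3 belong to the cluster of Ta.28750.1.S1_at (PSBR), and no probe set of Rubisco, PsbO or PsbP passed. The PSBR cluster was put in the list by its cluster number, with earlier results of these data known. Nothing is therefore read from the count of 3. PsbO, a subunit of the oxygen-evolving complex of photosystem II, had signals of 13.03 and 13.11 on the UD-2 arrays and 13.42 and 13.29 on the WT arrays (Ta.841.1.S1_a_at). Of 17 probe sets for grain storage proteins (gliadins, glutenins and avenin-like proteins), 13 were dimmer than background on every array, as were 3 of 4 for the anther proteins raftin1a and raftin1b. Over background on all 4 arrays were 3 of the grain and 1 of the anther probe sets. The avenin-like Ta.27777.1.S1_at among them read 10.79 and 10.66 on the UD-2 arrays and 10.27 and 10.36 on the WT arrays. No probe set used here is named for ZmDof1, so that the line labels were not checked on the transgene.

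Among the 10 probe sets, those of MAP70 and formin type had mostly higher mean signals in UD-2, whereas the actin-binding one and all 5 beta-tubulin ones had lower means. In the limma fit across all 61115 non-control probe sets, 2 of the 10 were higher and 1 was lower at an adjusted p under 0.05, against 0.430% higher and 0.281% lower among all probe sets tested. These 3 are the ones that had been listed from this same contrast, so nothing is read from the count. With any 1 of the 4 arrays left out, 0 of the 10 and 0 of all probe sets passed, and 5 to 9 of the 10 had an unadjusted p under 0.05, against 8.37% to 14.4% of all probe sets in those fits, 3 of the 10 having been selected on this contrast. The arrays of the lines did not overlap on 9 of the 10, with UD-2 above WT on 3, against 22.2% of all probe sets tested, and below WT on 6, against 25.9%. The median difference, UD-2 minus WT, was −0.40 over the 10 and −0.02 over all probe sets tested. The median of the 10 lies between 2 probe sets of the 1 gene Tubb5, which has 4 of the 10, so that it mostly restates that gene.

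**Figure D1:**
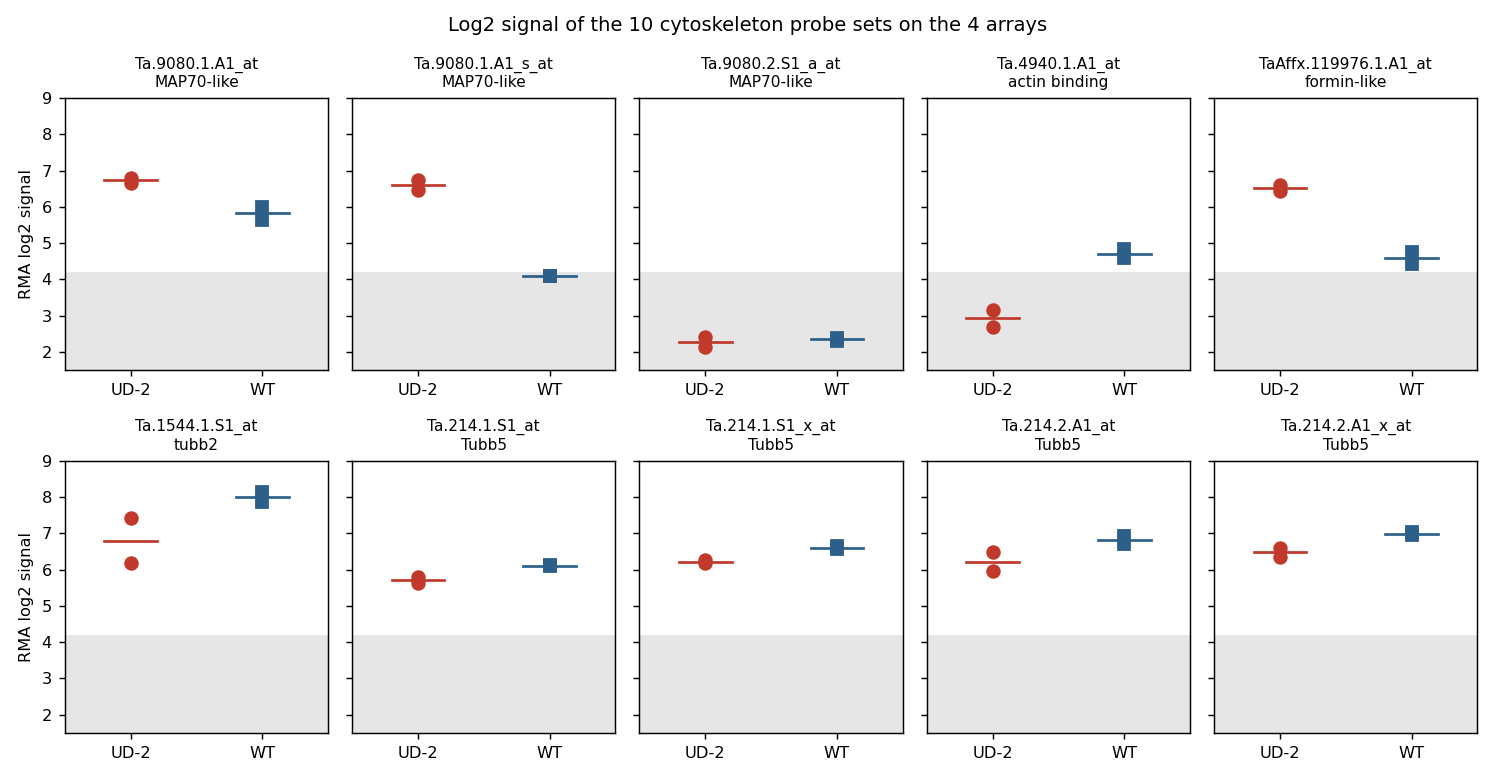
RMA log2 signal (vertical axis) of each of the 10 probe sets on the 2 UD-2 arrays (circles) and the 2 WT arrays (squares), with the mean of each line as a bar. The grey area lies under 4.17, the highest background level of the 4 arrays, and MAP70 _a_at lies inside it in both lines.

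MAP70 _s_at read 6.73 and 6.46 in the UD-2 pools and 4.09 and 4.10 in the WT pools. Both UD-2 pools were well over the background level and both WT pools were just under it. The mean of UD-2 was 6.59 ± 0.19 and that of WT 4.10 ± 0.01 (SD, n = 2 each), a difference of 2.50 on the log2 scale with a standard error of 0.14. Because the WT signal is at background, the change is a bound, and the signal of UD-2 exceeded that of WT at least 5.41-fold. The ending _s_at marks a probe set whose probes match more than 1 transcript, so that related sequences may share in this signal.

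MAP70 _at, named for the same cluster sequence, read 6.80 and 6.66 in the UD-2 pools and 5.99 and 5.65 in the WT pools. Whether the 2 probe sets share probes was not checked. The lines did not overlap, and all 4 signals were over background. The difference was 0.91 with a 95% interval of 0.54 to 1.29, a 1.88-fold higher signal, and it did not pass the threshold over all probe sets (adjusted p = 0.0655 from limma). It passed at 0.0451 with robust eBayes, at 0.0333 when dim probe sets were left out and at 0.0334 with each array centred on its median, which are 3 of 10 alternative settings, and the adjusted p was up to 0.195 in the others.

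MAP70 _a_at, the remaining probe set of the cluster, read 2.13 and 2.42 in the UD-2 pools and 2.31 and 2.40 in the WT pools. The lines overlapped and all 4 arrays lay under background, so that this probe set gave no information on a difference between the lines in either direction.

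The formin-like probe set read 6.61 and 6.44 in the UD-2 pools and 4.43 and 4.75 in the WT pools. Both lines were over the background level on every array, so that the fold is not a bound, but the WT pools were not far over it. Against the highest Bacillus control of each array, WT replicate 1 was under background, at 4.43 against 4.55. The difference was 1.94 with a standard error of 0.18, which is 3.83-fold higher in UD-2, and the smallest gap between a UD-2 and a WT array was 1.69.

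The actin-binding probe set read 3.16 and 2.69 in the UD-2 pools and 4.59 and 4.83 in the WT pools. The UD-2 pools were under background and the WT pools not far over it. The difference was −1.78 with a standard error of 0.26, and against the background level the signal was at least 1.68-fold lower in UD-2. When the background level was taken as the highest Bacillus control of each array, that bound was 1.16-fold, while it was 4.15-fold for MAP70 _s_at. The description does not say which actin-binding protein the cluster codes for.

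The beta-tubulin tubb2 (Ta.1544.1.S1_at) read 6.17 and 7.43 in the UD-2 pools and 7.85 and 8.13 in the WT pools. Both UD-2 pools were lower than both WT pools, but the UD-2 pools stood far apart from each other. The gap of 1.25 between them was exceeded by that of only 0.227% of all probe sets, whereas the gap of 0.28 between the WT pools was exceeded by 21.0%. The mean of UD-2 was 6.80 ± 0.89 and that of WT 7.99 ± 0.19 (SD, n = 2 each), a 2.28-fold lower signal with a log2 difference of −1.19 (95% interval −2.17 to −0.21, adjusted p = 0.166 from limma). With UD-2 replicate 1 left out the difference was −0.56, and with UD-2 replicate 2 left out it was −1.82, so that its size depends on which UD-2 pool is kept.

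Tubb5, another beta-tubulin, was named on all 4 probe sets of its cluster. Ta.214.2.A1_at read 5.95 and 6.49 in the UD-2 pools and 6.71 and 6.93 in the WT pools, and Ta.214.2.A1_x_at read 6.35 and 6.60 in the UD-2 pools and 6.94 and 7.02 in the WT pools. Ta.214.1.S1_at read 5.63 and 5.79 in the UD-2 pools and 6.12 and 6.10 in the WT pools, and Ta.214.1.S1_x_at read 6.17 and 6.25 in the UD-2 pools and 6.63 and 6.57 in the WT pools. On each of the 4 the UD-2 pools were lower than the WT pools with no overlap. The differences ran from −0.60 to −0.39, and none of the 4 passed the threshold (adjusted p from 0.121 to 0.168 from limma). The 4 probe sets report 1 gene and are not independent of each other. The 95% interval was narrowest on Ta.214.1.S1_x_at, at −0.66 to −0.12, and widest on Ta.214.2.A1_at, at −1.10 to −0.10. On Ta.214.2.A1_at, leaving out UD-2 replicate 1 gave −0.33, and leaving out UD-2 replicate 2 gave −0.87.

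**Figure D2:**
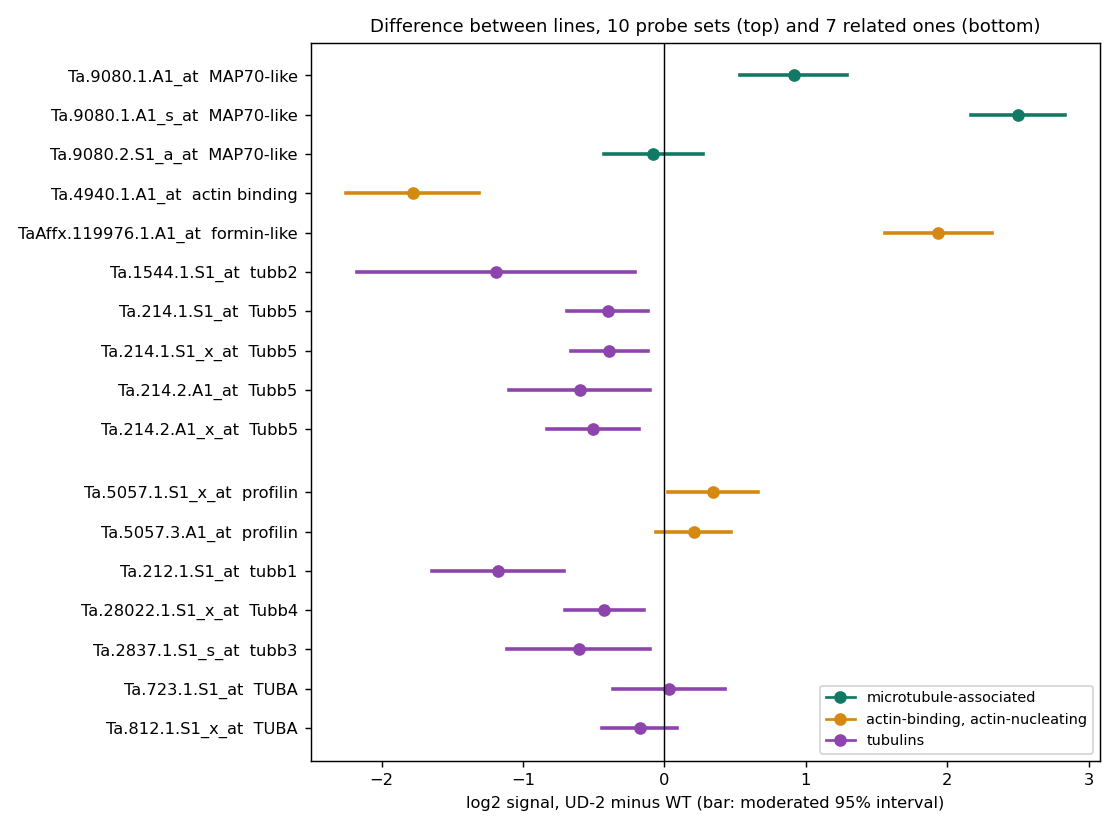
Log2 difference between the lines, UD-2 minus WT (horizontal axis, points), with the moderated 95% interval of limma (bars), for the 10 probe sets and for 7 further tubulin and profilin probe sets. All 8 beta-tubulin intervals lie under 0. Those of MAP70 _a_at, of both TUBA probe sets and of the profilin probe set Ta.5057.3.A1_at cross it.

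The other cytoskeletal genes that the annotation names were tubulins and a profilin, on 7 further probe sets. None of the 7 passed the threshold, with 3 lower and 1 higher at an unadjusted p under 0.05, where 5234 lower and 5214 higher of all 61115 probe sets lay. The beta-tubulin tubb1 (Ta.212.1.S1_at) read 7.24 and 7.71 in the UD-2 pools and 8.53 and 8.77 in the WT pools. The lines were apart, with a difference of −1.18 (95% interval −1.64 to −0.71, adjusted p = 0.0616 from limma). With 5 of 10 alternative settings it passed, at adjusted p-values from 0.0308 to 0.0415, and with the others they were up to 0.182. The beta-tubulin tubb3 (Ta.2837.1.S1_s_at) read 9.05 and 9.63 in the UD-2 pools and 9.92 and 9.97 in the WT pools, a difference of −0.61, which became −0.32 when UD-2 replicate 1 was left out and −0.90 when UD-2 replicate 2 was. The beta-tubulin Tubb4 (Ta.28022.1.S1_x_at) read 9.19 and 9.24 in the UD-2 pools and 9.58 and 9.70 in the WT pools, a difference of −0.43, with the pools of each line close together.

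Over the 8 probe sets of the 5 beta-tubulin genes, both UD-2 pools were lower than both WT pools on 8 of 8, against 25.9% of all probe sets tested. At an unadjusted p under 0.05 from limma, all 8 were lower, against 8.56% of all probe sets, while 0 of the 8 passed after adjustment over all probe sets. That count of 8 was 4 without UD-2 replicate 1, where 9.30% of all probe sets had such a p in either direction, and 8 without UD-2 replicate 2, against 14.4%. It was 3 without WT replicate 1, against 8.37%, and 2 without WT replicate 2, against 12.4%. Because the clusters and lists were chosen with earlier results of these data known, these counts are a description only. The median difference of the 8 was −0.55, against −0.02 over all probe sets tested, which corresponds to a 1.47-fold lower signal. Beta-tubulins are close relatives, and probe sets ending in _x_at or _s_at contain probes that match several transcripts, so that the 5 genes may in part share signal and their number overstates how many separate transcripts were read. In leaf RNA, fewer cells that express a gene and less RNA of it per cell cannot be told apart.

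The pools of UD-2 also differed among themselves. On all 8 beta-tubulin probe sets UD-2 replicate 1 was lower than UD-2 replicate 2, against 50% of all probe sets tested. The WT pools leaned the same way, with WT replicate 1 lower than WT replicate 2 on 6 of the 8, against 52.7%. The median distance to the WT mean was −0.75 in UD-2 replicate 1 and −0.37 in UD-2 replicate 2. The gap between the UD-2 pools was wider than that between the WT pools on 7 of the 8, Tubb4 being the exception. It was 0.58 for tubb3, 0.53 for Ta.214.2.A1_at of Tubb5 and 0.46 for tubb1, gaps that 3.37%, 4.50% and 6.96% of all probe sets exceeded. Of the 5 among the 10 that are not tubulins, UD-2 replicate 1 was the lower pool on MAP70 _a_at and the higher one on 4. The gap there was 0.47 on the actin-binding probe set, 0.27 on MAP70 _s_at, 0.17 on the formin-like one and 0.14 on MAP70 _at, and 6.68%, 23.6%, 43.1% and 50.6% of all probe sets had wider ones.

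**Figure D3:**
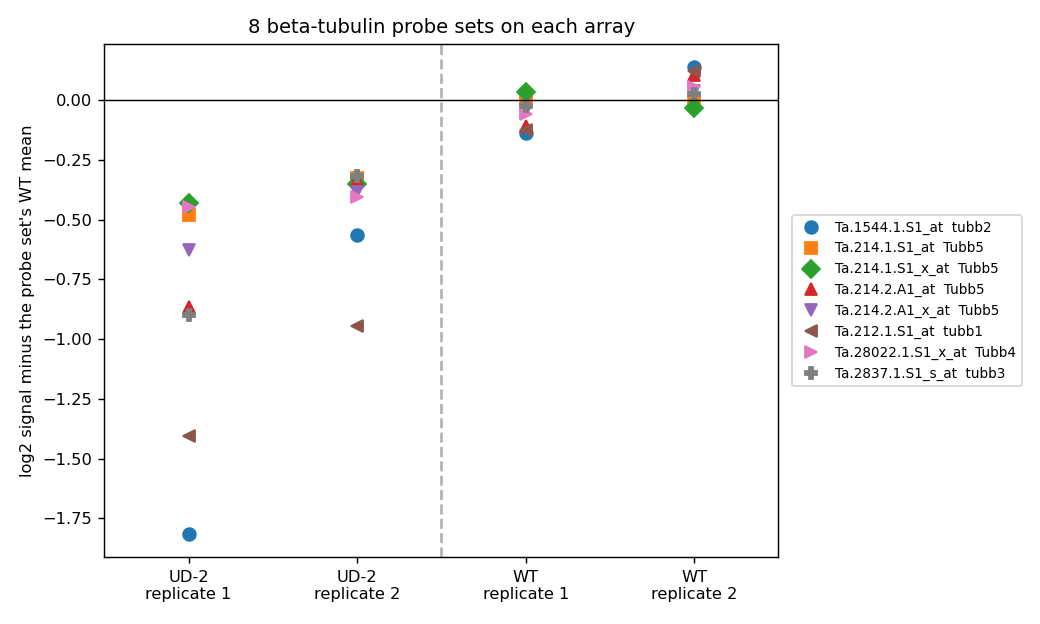
Log2 signal of the 8 beta-tubulin probe sets on each array, as the distance from the probe set's own mean in WT (vertical axis). Every UD-2 point lies under every WT point, and the points of UD-2 replicate 1 reach −1.82 for tubb2, whereas those of UD-2 replicate 2 lie closer to the WT mean.

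Alpha-tubulin, the partner of beta-tubulin in the dimer, was named on 2 probe sets of the gene TUBA. Ta.812.1.S1_x_at read 11.47 and 11.44 in the UD-2 pools and 11.65 and 11.61 in the WT pools. The lines did not overlap, but the difference was small, at −0.18 (95% interval −0.44 to 0.09, adjusted p = 0.325 from limma). Ta.723.1.S1_at read 3.91 and 3.57 in the UD-2 pools and 3.60 and 3.81 in the WT pools and lay under background on all 4 arrays.

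Profilin was named on 2 probe sets of 1 gene with the synonyms Profilin-1 and Profilin-2. Ta.5057.1.S1_x_at read 12.54 and 12.31 in the UD-2 pools and 12.12 and 12.03 in the WT pools, and Ta.5057.3.A1_at read 13.23 and 13.18 in the UD-2 pools and 12.98 and 13.01 in the WT pools. Both were above WT in both UD-2 pools, by 0.34 (95% interval 0.02 to 0.66) and by 0.21 (95% interval −0.06 to 0.47), and neither passed the threshold (adjusted p = 0.191 and 0.277 from limma). The annotation used here named no probe set for actin, a kinesin or a cellulose synthase, so that these were not analysed here. The 1 probe set of a cell wall gene, XTH (Ta.30703.1.S1_at), whose product cuts and rejoins xyloglucan, read 5.57 and 5.58 in the UD-2 pools and 5.49 and 5.63 in the WT pools, and the lines overlapped.

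The probe sets whose pattern over the 4 arrays was nearest to that of each listed one were found by the Euclidean distance between signals centred on their own mean. For MAP70 _s_at the nearest were Ta.26120.1.S1_x_at, whose matches are a retrotransposon protein in rice and a protein kinase in Arabidopsis, at 0.20, TaAffx.7104.1.S1_x_at, matched to subunit RPC8 of RNA polymerase III, at 0.28, and Ta.12046.1.A1_at, of the ubiquitin family, at 0.29 on the log2 scale. For the formin-like probe set they were the cytochrome P450 TaAffx.6564.1.S1_at, at 0.18, and Ta.23307.3.S1_a_at and Ta.14076.1.S1_at, of no described function, at 0.19 and 0.20. For the actin-binding probe set they were Ta.16669.1.S1_x_at, at 0.12, Ta.6014.1.A1_at, at 0.25, and TaAffx.1074.1.S1_at, at 0.26, which carry no description in the sources used here. None of the 9 is named as a cytoskeletal gene. With 4 arrays in 2 groups, a small distance says little more than that the size of the difference between the lines was alike.

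**Figure D4:**
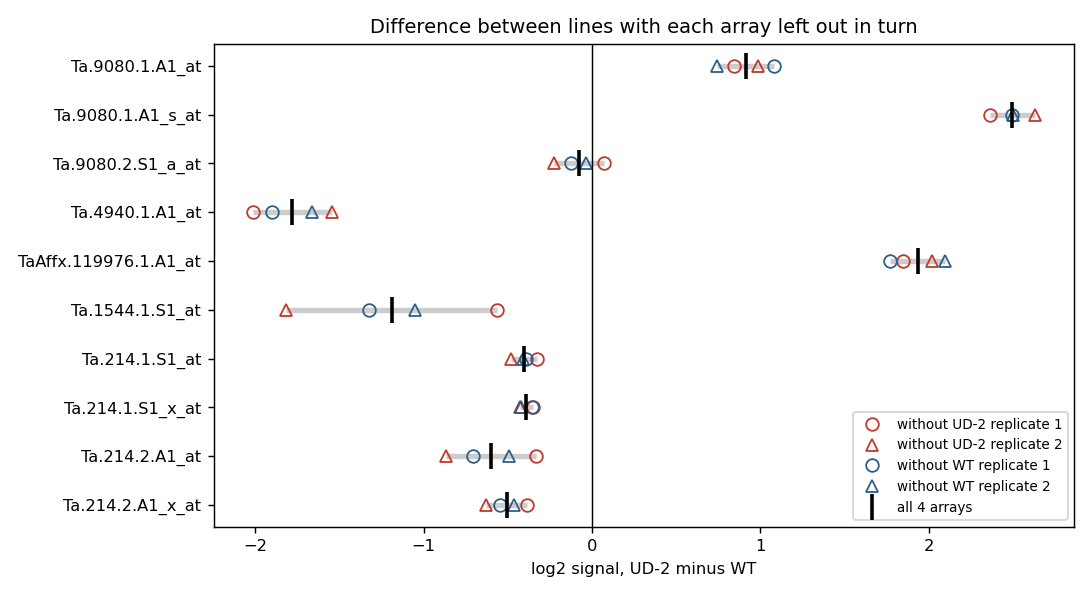
Log2 difference between the lines, UD-2 minus WT (horizontal axis), for each of the 10 probe sets with all 4 arrays (black bar) and with each array left out in turn (open symbols). The spread is widest for Ta.1544.1.S1_at (tubb2), from −1.82 to −0.56, and MAP70 _a_at turns sign, at 0.070 without UD-2 replicate 1.

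Leaving out arrays moved the clusters to unequal extents. MAP70 _s_at stayed between 2.36 and 2.63, MAP70 _at between 0.75 and 1.08 and the formin-like probe set between 1.77 and 2.10. The actin-binding probe set ran from −2.02 to −1.55. For the 4 Tubb5 probe sets the values ran from −0.87 to −0.32.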

How the data were processed

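Flag leaf RNA of UD-2 and WT was hybridised to 4 GeneChip Wheat Genome Arrays, 2 per line. The log2 values deposited by the authors, 1 for each probe set on each array, come from RMA in the Affy package (background correction, normalization between arrays, summary over probes). For that package no version was found in the sources, while R 3.1.1 and limma stand in the submitters' processing notes. RMA normalizes the arrays together, so that a shift shared by most transcripts cannot be seen, and it compresses changes near background.

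The 175 control probe sets were left out and the log2 values of the other 61115 were fitted by line, without covariates, in limma 3.58.1 (lmFit, eBayes; R 4.3.3). P-values were adjusted by the Storey and Tibshirani method named in the study's methods (lambda from 0.05 to 0.95 in steps of 0.05, share of unchanged probe sets 0.708) at a threshold of 0.05. Standard errors are those of the unmoderated fit and the 95% intervals those of the moderated one. Where both arrays of the dimmer line were under background, the fold was taken against the background level and given as at least that size. The fit was tested on simulated data with known changes. Python 3.11.15 with pandas 2.3.3 and matplotlib 3.10.9 served for tables and plots.

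Genes were named from the platform annotation, which gives no gene for 60017 probe sets and 1 gene for 1273. The gene ID of 1272 of these is in the wheat RefSeq table of assembly IWGSC CS RefSeq v2.1. List patterns were applied to symbols and synonyms there. The MAP70 probe sets are Ta.9080.1.A1_s_at, Ta.9080.1.A1_at and Ta.9080.2.S1_a_at, the formin-like one TaAffx.119976.1.A1_at and the actin-binding one Ta.4940.1.A1_at. Every probe set of the 5 clusters and of the wider cytoskeleton and cell wall lists was named, with the 3 nearest patterns of each listed probe set. The members and lists were chosen with earlier results of these data known. Pools hold different plants, and 2 arrays per line limit the precision. Alternatives changed the adjustment, eBayes, the filter, controls, normalization, replicate block, background level or the arrays kept. qRT-PCR was not analysed here.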

Additional observations from a re-analysis of the deposited data

Results flagged for a closer look

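Control probe sets, which took no part in the comparisons above, held 2 signals that passed the adjusted p threshold of 0.05 in a limma fit with the controls kept, both higher in UD-2 than in WT. The reporter control RPTR-Ta-U57609-2_s_at had 11.22 and 10.70 in UD-2 and 4.62 and 5.47 in WT, a log2 difference of 5.91. The hybridization control AFFX-BioB-M_at had 5.33 and 5.22 in UD-2 and 4.47 and 4.39 in WT, a log2 difference of 0.84. It is 1 of 27 probe sets for the bioB, bioC, bioD and cre spike-in controls, and the mean was higher in UD-2 on all 27, with both UD-2 arrays above both WT arrays on 23 and a median log2 difference of 0.27. The part of this shared shift in the results was not tested.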

How the results depend on the processing

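With 2 arrays per line and 1 of the 4 left out, limma called 0 of the 10 probe sets and 0 of all 61115 higher or lower, with 5 to 9 of the 10 at an unadjusted p under 0.05, against 8.37% to 14.4% of all probe sets, and 3 of the 10 had been chosen on this contrast. In those fits the lone array is assumed to vary like the others. Leaving out an array gave log2 differences from 2.36 to 2.63 for MAP70 _s_at, from 1.77 to 2.10 for the formin-like probe set and from −2.02 to −1.55 for the actin-binding one, and MAP70 _a_at, at background, ran from −0.23 to 0.070, turning sign without UD-2 replicate 1. Over all probe sets, 263 higher and 172 lower calls became 142 and 98 with Benjamini-Hochberg adjustment and 512 and 325 with robust eBayes. They became 1090 and 718 among the probe sets left after the dim ones were dropped. With quantile normalization they were 401 and 286, with median centring 797 and 319, and with cyclic loess normalization 376 and 279. Robust eBayes, the dim filter, quantile normalization, median centring and cyclic loess each called 1 tubulin probe set lower, Ta.212.1.S1_at of tubb1, in place of 0. The replicate numbers pair no samples by their labels, and the deviations of same-numbered arrays correlated at −0.09. With the replicate block, 0 of the 10 were called higher and 0 lower, with 9 of 10 at an unadjusted p under 0.05, against 13.9% of all probe sets, and 16 and 11 of all probe sets were called. The block cannot change a difference in this balanced design, so that the log2 differences no longer called were again 2.50 for MAP70 _s_at, 1.94 for the formin-like probe set and −1.78 for the actin-binding one. Of the settings that keep all arrays, only the 3 other normalizations can change a log2 difference, and under these 29 of 30 values of the 10 probe sets kept their direction and their side of the threshold, while MAP70 _at passed it with median centring. The cause of these shifts was not tested. At the 75th percentile of the Bacillus controls both WT pools were over background on MAP70 _s_at, and no bound was needed. On the actin-binding probe set UD-2 replicate 1 was just over that level, at 3.16 against 3.13. UD-2 replicate 2 was still under it there, at 2.69 against 3.06, so that its fold was not a fully measured one. Signal over background limits MAP70 _a_at and Ta.723.1.S1_at on every array.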
